A study of Homo sapiens with 6 samples.

Results

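Aminoacyl-tRNA synthetases, the enzymes that join each amino acid to its transfer RNA, were followed in OCI-AML3, a long-established cell line grown from a human acute myeloid leukaemia. The genes were a named list of 36, matched by symbol to the gene IDs of the deposited files, out of 60660 gene IDs listed. 20 encode cytosolic enzymes and 16 encode mitochondrial enzymes, and all 36 passed the filter on low values. RNA-seq was made from 6 libraries. 3 carried an empty vector, named pLenti in the titles, and 3 overexpressed SLC2A3, the gene of the glucose transporter GLUT3. All 6 cultures received 250 µM vitamin C, so no group here lacks the vitamin. The labels do not say whether each replicate is a separate culture, nor whether a line is a clone, nor which promoter drives SLC2A3, so p-values reflect the spread among these libraries alone, which may be technical.

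Each synthetase recognises 1 amino acid and its transfer RNAs, with EPRS1 charging both glutamate and proline. In the cytosol, several of the enzymes are held together with scaffold proteins in the multisynthetase complex, and the others work as free enzymes. Mitochondria translate their own few messages with a separate set of enzymes, which are encoded in the nucleus and imported. Uncharged transfer RNA activates the kinase GCN2, encoded by EIF2AK4, which favours translation of the transcription factor ATF4. Many cytosolic synthetase genes are known targets of ATF4, which binds a composite C/EBP and ATF element in their promoters.

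The targeted gene was checked first. SLC2A3 stood at 1194, 1183 and 1257 normalised reads with the empty vector and at 4056, 3716 and 4054 with SLC2A3, so the groups did not overlap. Between 31054462 and 35770556 reads were recovered per library. All 8 myeloid leukaemia markers examined had a median above 100 normalised reads. Of these, FLT3, a receptor kinase of blood progenitors, was called lower with SLC2A3, at a mean of 2808 against 3254 with the empty vector (limma adjusted p = 0.0277). Of 9 markers of other cell types, 6 had a median below 5, among them CD3E, MS4A1 and HBB at 0 in every library, while PECAM1 was above 100. The summed level of these 9 ranged from 1695 to 1767 in the empty vector libraries and from 1599 to 1652 in the SLC2A3 libraries. Nearly all of that sum was PECAM1, at a mean of 1711 with the empty vector and 1576 with SLC2A3 (limma adjusted p = 0.44). The sum therefore says little about the other markers. Means of EPCAM, COL1A1, COL1A2 and PF4 were higher with SLC2A3, COL1A1 at 22.3 against 14.1, and that of KRT19 was lower. RN7SL1, a noncoding RNA whose level differed widely between libraries, stood at 538, 1812 and 705 in the empty vector group and at 2233, 6026 and 1922 in the SLC2A3 group. The part of FLT3 and RN7SL1 in the results below was not tested.

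The promoters are shown first, with the enzymes in which the core of the ATF4 element was found. RefSeq windows on GRCh38.p14, from 250 bases before to 50 bases after the gene start, were matched for 30 of the 36 genes. AARS2, LARS1, TARS3, VARS1, VARS2 and YARS1 had no match. The core of the element was searched as TGATGNAA on both strands, with N as any base. It was present in 3.62% of all 35116 windows, in 7 of the 16 matched cytosolic genes and in 1 of the 14 matched mitochondrial genes. A gene counted if any of its windows matched, and the 30 genes had 39 windows. Shares of windows and counts of genes, here and for the motifs below, are therefore unlike measures. The 8 stretches are given on the strand that reads TGATGNAA, 5′ to 3′, with the match in capitals and 10 bases on either side.
AARS1: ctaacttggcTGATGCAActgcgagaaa
CARS1: tcctagaatcTGATGCAAccgccgcccc
GARS1: gctcggagcaTGATGAAAtcgccgcgta
IARS1: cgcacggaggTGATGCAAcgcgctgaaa
MARS1: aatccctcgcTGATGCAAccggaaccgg
NARS1: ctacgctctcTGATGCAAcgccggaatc
TARS1: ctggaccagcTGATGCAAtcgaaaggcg
YARS2: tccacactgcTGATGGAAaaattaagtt

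6 of the 7 cytosolic matches read TGATGCAA, the exception being GARS1 with TGATGAAA. Positions were counted in the direction of the gene from the start that RefSeq gives, and 6 of the 7 lay close to it. The match began at -33 in GARS1, -13 in IARS1, -4 in MARS1, -2 in CARS1, 3 in TARS1 and 15 in NARS1. In AARS1 it began at -187, and in YARS2 at -197. The outermost GENCODE 29 starts, which bound the gene coordinates printed here, differ from those of RefSeq. Counted from them, the match began at 47 in IARS1, 165 in GARS1, 189 in CARS1, 272 in TARS1, 392 in NARS1 and 12620 in MARS1, inside the gene, and at -150 in AARS1 and -192 in YARS2. The stretch of NARS1 is at chr18:57621805-57621832 on the minus strand and that of IARS1 at chr9:92293693-92293720 on the plus strand. The full cyclic AMP response element TGACGTCA was in none of the 30 matched genes and in 1.85% of all windows. The E-box CACGTG, a palindrome that does not overlap the other motifs searched, was in 4 of them, IARS1, CARS2, EARS2 and MARS2, and in 7.26% of all windows. A match describes letters in the window and is not evidence of binding. A gene without a match may still carry the element outside the window searched.

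The comparison of SLC2A3 overexpression with the empty vector asks how raised GLUT3 alters gene expression in leukaemia cells given vitamin C. No synthetase gene passed the test in either direction. In these bulk libraries, a shift in the mix of cells and a change of RNA per cell cannot be told apart. limma called 0 of the 36 genes at an adjusted p of 0.05, against 1.49% of all 28015 genes tested and 5.34% of the 5894 with a mean of at least 1000 normalised reads. At an unadjusted p under 0.05, limma counted 9 of the 36, all with a higher mean in the SLC2A3 libraries, against 5.63% of all tested genes and 11.1% of those with a mean of at least 1000 in that direction. On reads recovered from the values, edgeR called LARS1 alone, with 3.29% called of the 18630 genes it tested. DESeq2 called AARS1, FARSB, LARS1 and YARS1, with 8.62% called of the 9332 genes to which it gave an adjusted p. It gave none for TARS3, PARS2, SARS2 and VARS2. Shares by limma, edgeR and DESeq2, here and below, thus rest on unlike sets of genes.

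Most differences were small and closely bounded. The 95% interval of the limma estimate lay within a 1.5-fold change in either direction for 35 of the 36 genes, VARS2 being the exception, and within 1.2-fold for 28. The median log2 change was 0.08 over the 20 cytosolic genes and 0.01 over the 16 mitochondrial genes, beside 0.00 over all tested genes and -0.01 over those with a mean of at least 1000. The estimate was above 0 for 18 of the 20 cytosolic and 10 of the 16 mitochondrial genes. Among all tested genes it was above 0 for 50.3%, and among those with a mean of at least 1000 for 44.4%. The SLC2A3 libraries all lay above the empty vector libraries for 10 of the 20 cytosolic and 2 of the 16 mitochondrial genes, against 8.04% of all tested genes, and 12.7% of those with a mean of at least 1000. The reverse order was seen for 0 of the 36, against 8.27% of all tested genes, and 1019 of the 5894 with a mean of at least 1000. Leaving out replicate 2 of both groups, the libraries highest in RN7SL1 in each, gave a cytosolic median of 0.09 and a mitochondrial median of -0.01.

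**Figure D1:**
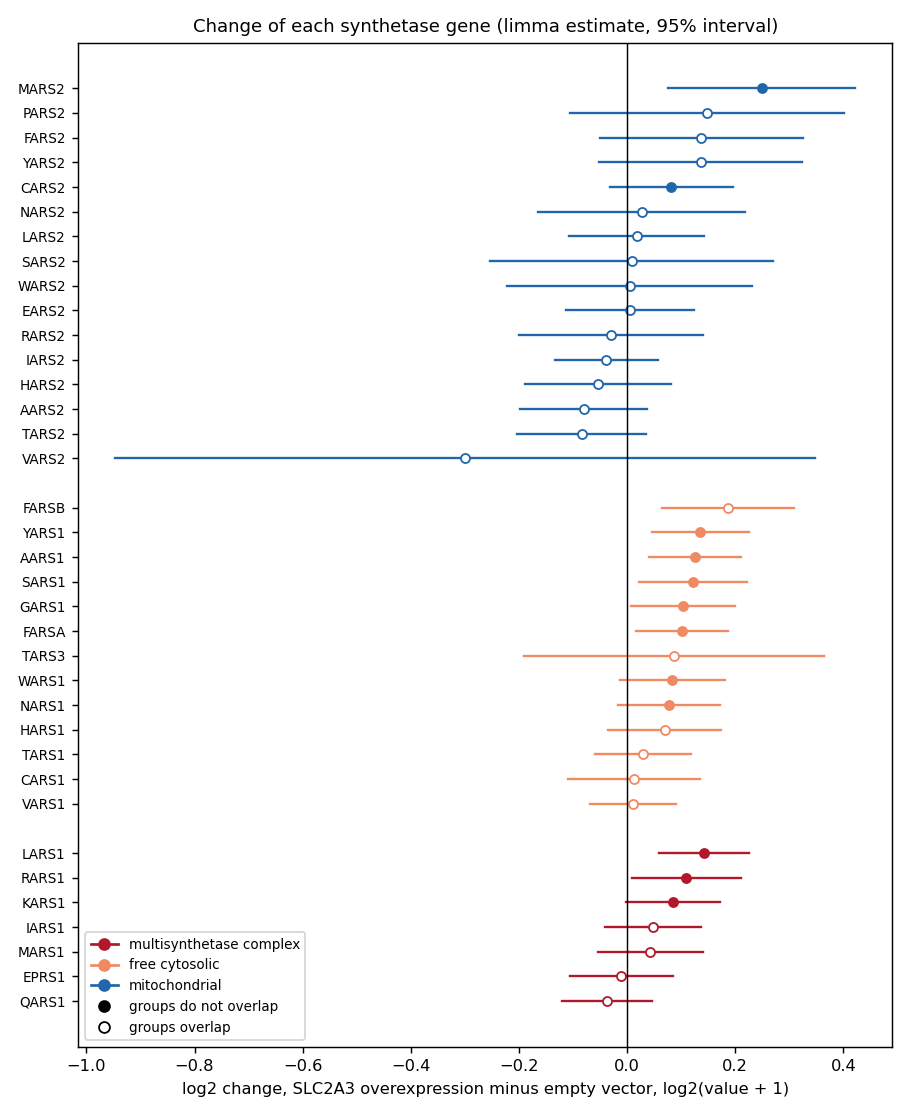
Log2 change (x axis, SLC2A3 overexpression minus empty vector, on the log2(value + 1) scale) with its 95% interval for the 36 synthetase genes, coloured by group. Filled points mark genes whose 3 libraries per group do not overlap: 10 of the 20 cytosolic genes and 2 of the 16 mitochondrial genes, all with the SLC2A3 libraries above.

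Of the 7 genes of the multisynthetase complex, 0 passed by limma, 2 had an unadjusted p under 0.05, both higher, and the median log2 change was 0.05. In that direction, 5.63% of all tested genes had such a p by limma. edgeR and DESeq2 each called 1, LARS1, against 3.29% of all genes tested by edgeR and 8.62% of those given an adjusted p by DESeq2. LARS1 encodes leucyl-tRNA synthetase, which is also known as a leucine sensor upstream of mTORC1 (chromosome 5, 146113038 to 146182660). Its normalised reads were 9737, 9602 and 9405 with the empty vector against 10250, 10849 and 10626 with SLC2A3. The groups did not overlap, and the means were 9581 ± 167 and 10575 ± 303 (SD, n = 3 per group). The log2 change of 0.14 (SE 0.040) missed the threshold with limma (adjusted p = 0.0791), and over the 18 alternatives the adjusted p ranged from 0.00411 to 0.303, with 6 past the threshold. Those were edgeR with either scaling, DESeq2, a stricter filter on low values, a correction for transcript length and GC content, and the fit without SLC2A3 overexpression replicate 1 (adjusted p = 0.0464).

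RARS1, the arginyl enzyme (chromosome 5, 168486445 to 168519299), had 3135, 3179 and 3216 normalised reads with the empty vector and 3528, 3413 and 3344 with SLC2A3. Its groups did not overlap, and the log2 change was 0.11 (limma adjusted p = 0.368). KARS1, which supplies lysyl-tRNA synthetase to both the cytosol and mitochondria (chromosome 16, 75627474 to 75648643), had 6825, 6574 and 6614 against 6979, 7016 and 7228. These groups were also apart, with a log2 change of 0.08 (limma adjusted p = 0.443). IARS1, the isoleucyl enzyme (chromosome 9, 92210207 to 92293756), had 6358, 6174 and 6169 against 6386, 6619 and 6326, and its groups overlapped because SLC2A3 replicate 3 lay below empty vector replicate 1. MARS1, the methionyl enzyme, had a log2 change of 0.04 with overlapping groups. The 2 complex members with an estimate below 0 were QARS1, the glutaminyl enzyme, at -0.04, and EPRS1 at -0.01. EPRS1 ranged from 8430 to 9329 normalised reads with the empty vector and from 8438 to 9353 with SLC2A3, almost the same span in both groups.

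Of the 13 free cytosolic genes, 0 passed by limma or edgeR, and 6 had an unadjusted p under 0.05 by limma, all higher. In that direction, 5.63% of all tested genes had such a p, and 11.1% of those with a mean of at least 1000. DESeq2 called 3 of the 13, against 8.62% of all genes to which it gave an adjusted p. All 13 estimates were above 0, from 0.01 to 0.19, with a median of 0.09. Among all tested genes 50.3% were above 0, and 44.4% of those with a mean of at least 1000. The largest was that of FARSB, the beta subunit of phenylalanyl-tRNA synthetase (chromosome 2, 222570536 to 222656337). FARSB had 2276, 2622 and 2297 normalised reads with the empty vector and 2584, 2810 and 2784 with SLC2A3. Empty vector replicate 2 was high and lay above SLC2A3 replicate 1, so the groups overlapped. The log2 change was 0.19 (SE 0.059, limma adjusted p = 0.13), and without empty vector replicate 2 it was 0.25 (limma adjusted p = 0.0211). Its partner FARSA, the alpha subunit (chromosome 19, 12922479 to 12934037), had 8566, 8941 and 8511 against 9554, 9171 and 9194. The groups were apart for FARSA, with a log2 change of 0.10 (limma adjusted p = 0.284).

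YARS1, the tyrosyl enzyme (chromosome 1, 32775237 to 32818153), had 6047, 6306 and 6309 normalised reads with the empty vector and 7088, 6681 and 6736 with SLC2A3. All 3 SLC2A3 libraries were above all 3 empty vector libraries, and the log2 change was 0.14 (SE 0.044, limma adjusted p = 0.141). AARS1, the alanyl enzyme, which also edits wrongly charged alanine transfer RNA (chromosome 16, 70252295 to 70289543), had 9328, 9853 and 9886 against 10931, 10350 and 10434. These groups did not overlap, with a log2 change of 0.13 (SE 0.041, limma adjusted p = 0.149). Correcting each library for length and GC content of the transcripts brought both past the threshold, YARS1 at 0.18 (limma adjusted p = 0.0057) and AARS1 at 0.14 (limma adjusted p = 0.0201). SARS1, the seryl enzyme, which also charges the selenocysteine transfer RNA with serine (chromosome 1, 109213918 to 109238169), had 4012, 3940 and 3970 against 4456, 4440 and 4086. SLC2A3 replicate 3 was close to the empty vector group without reaching it, and the log2 change was 0.12 (limma adjusted p = 0.278).

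Among the other free enzymes, groups were also apart for GARS1, the glycyl enzyme that serves the cytosol and mitochondria, for NARS1, the asparaginyl enzyme, and for WARS1, the tryptophanyl enzyme, with log2 changes of 0.10, 0.08 and 0.08. They overlapped for HARS1 (histidine, 0.07), TARS1 (threonine, 0.03), CARS1 (cysteine, 0.01) and VARS1 (valine, 0.01). TARS3, a threonyl paralogue of TARS1, had by far the lowest reads of the cytosolic set, from 213 to 325, and its log2 change of 0.09 had an interval from -0.19 to 0.36. The 13 cytosolic enzymes listed as known ATF4 targets had a median log2 change of 0.08. Of these, limma called 0, edgeR 1 and DESeq2 3, against 1.49%, 3.29% and 8.62% of the genes to which each gave an adjusted p. By limma, 5 of the 13 had an unadjusted p under 0.05, all higher, against 5.63% of all tested genes in that direction. The median of the 7 cytosolic enzymes outside that list was 0.09. Among cytosolic genes with a promoter window, the 7 with TGATGNAA had log2 changes from 0.01 to 0.13 with a median of 0.05, and the 9 without it from -0.04 to 0.19 with a median of 0.08. The difference between these groups was not tested.

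**Figure D2:**
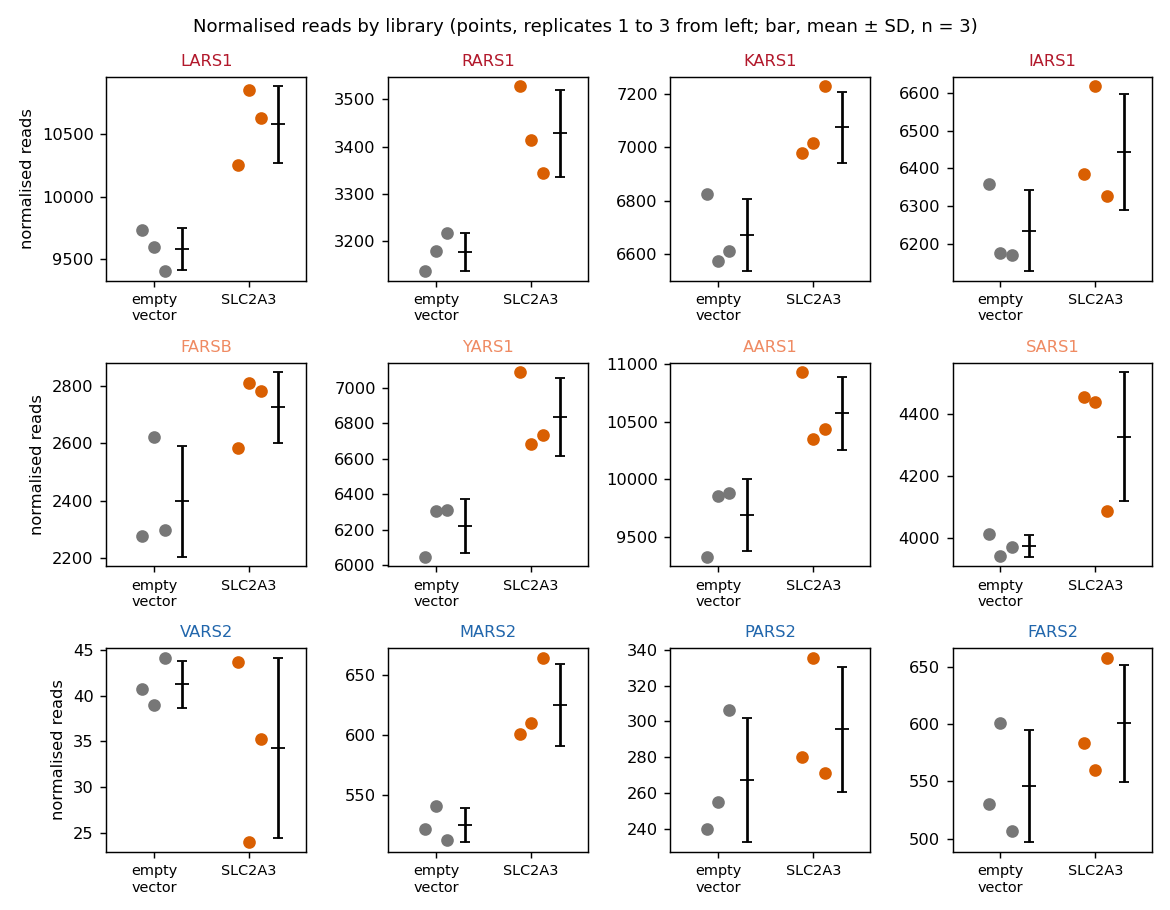
Normalised reads (y axis, own scale per gene, not starting at 0) in each of the 6 libraries for the 4 genes with the largest absolute log2 change in each group: multisynthetase complex in the top row, free cytosolic in the middle, mitochondrial at the bottom. Bars are mean ± SD (n = 3). LARS1, RARS1, KARS1, YARS1, AARS1, SARS1 and MARS2 show no overlap between groups, while FARSB overlaps through empty vector replicate 2.

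Of the 16 mitochondrial genes, 0 passed by limma, edgeR or DESeq2. By limma, 1, MARS2, had an unadjusted p under 0.05 with a higher mean, as did 5.63% of all tested genes. MARS2 encodes the mitochondrial methionyl enzyme (chromosome 2, 197705369 to 197708387). It had 523, 541 and 513 normalised reads with the empty vector and 601, 610 and 664 with SLC2A3, so the groups did not overlap. The means were 525 ± 14.4 and 625 ± 34.3 (SD, n = 3 per group), 1.19-fold apart, and the log2 change of 0.25 (SE 0.085) was the largest of the 36 (limma adjusted p = 0.169). CARS2, the mitochondrial cysteinyl enzyme, was the other member with groups apart, at 1960, 2036 and 1976 against 2092, 2162 and 2067, and had a log2 change of 0.08 (limma adjusted p = 0.639).

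PARS2, the prolyl enzyme of mitochondria (chromosome 1, 54756898 to 54764514), had 240, 255 and 306 normalised reads with the empty vector and 280, 336 and 271 with SLC2A3. FARS2, the phenylalanyl enzyme, a single chain unlike its cytosolic counterpart (chromosome 6, 5261044 to 5829192), had 530, 601 and 507 against 583, 560 and 658. The groups overlapped for both, and the log2 changes were 0.15 and 0.14. Single libraries moved both: PARS2 stood at 0.05 without SLC2A3 overexpression replicate 2, and dropping replicate 1 or replicate 3 of the empty vector gave 0.07 or 0.25. FARS2 stood at 0.07 without SLC2A3 overexpression replicate 3, and dropping replicate 3 or replicate 2 of the empty vector gave 0.09 or 0.21. VARS2, the valyl enzyme (chromosome 6, 30908242 to 30926459), had 40.7, 39.0 and 44.1 against 43.6, 24.0 and 35.2. VARS2 was the lowest member by far, and its log2 change of -0.30 was -0.07 without SLC2A3 overexpression replicate 2 and -0.49 without SLC2A3 overexpression replicate 1. The estimate had an interval from -0.95 to 0.35, so these libraries settle neither the direction nor the size of a change in VARS2.

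The remaining mitochondrial enzymes had overlapping groups. Estimates were above 0 for YARS2 (tyrosine, 0.14), NARS2 (asparagine, 0.03), LARS2 (leucine, 0.02), SARS2 (serine, 0.01), WARS2 (tryptophan, 0.01) and EARS2 (glutamate, 0.00). They were below 0 for TARS2 (threonine, -0.08), AARS2 (alanine, -0.08), HARS2 (histidine, -0.05), IARS2 (isoleucine, -0.04) and RARS2 (arginine, -0.03). In GENCODE 29, 72.5% of the exonic bases of the principal SARS2 transcript are shared with a second gene on the same strand, ENSG00000269547, which had 0 reads in every library. Reads of SARS2 could therefore be divided or dropped in counting, and its level is uncertain. HARS1 shares 26.9% of its transcript with genes on the other strand, HARS2 among them, and the sources used here do not state whether counting used strand.

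Counting error was taken for each gene in the library with the fewest reads of that gene. It was below the replicate coefficient of variation of both groups for 22 of the 36 members. The same held for 17 of the 26 members with at least 1000 reads in every library. LARS1, with at least 9394 reads in each library, had a counting error of at most 1.03% and a replicate coefficient of variation of 1.74% and 2.87% in the 2 groups. For SARS1, the counting error of at most 1.62% was above the 0.91% variation of the empty vector libraries. VARS2, at 25 to 47 reads, had a counting error of at least 14.6% in every library. The counting errors cover sampling of reads only.

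Summed over members, the cytosolic enzymes took about 0.36% of recovered reads in the empty vector libraries and 0.37% to 0.38% in the SLC2A3 libraries. The cytosolic sums were 119312, 119296 and 118155 normalised reads with the empty vector and 125245, 125082 and 123888 with SLC2A3. The groups were apart, and the means of 118921 ± 663 and 124738 ± 741 (SD, n = 3 per group) differed 1.05-fold. The mitochondrial sums were 22486, 22320 and 22230 against 21766, 22853 and 22089, and these overlapped. The cytosolic sum was 5.31, 5.34 and 5.32 times the mitochondrial sum with the empty vector and 5.75, 5.47 and 5.61 times with SLC2A3. No test was run on these sums, since the list was chosen with earlier results known.

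**Figure D3:**
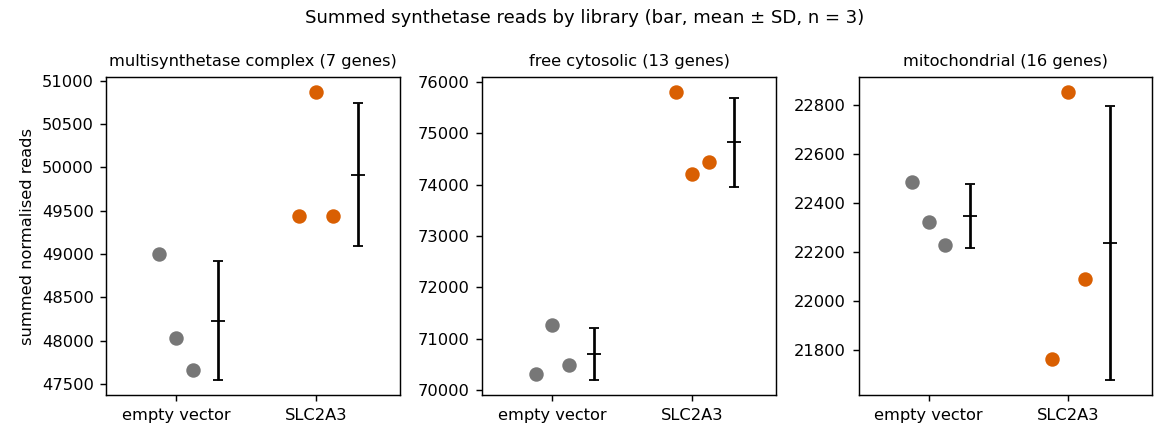
Summed normalised reads per library (y axis, not starting at 0) for the multisynthetase complex, the free cytosolic enzymes and the mitochondrial enzymes, with mean ± SD (n = 3) beside the points. The SLC2A3 libraries lie above the empty vector libraries in both cytosolic panels and overlap them in the mitochondrial panel.

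Levels differed far more between the cytosolic and mitochondrial enzymes than between the groups of libraries. Per kilobase of the principal GENCODE 29 transcript, the cytosolic gene was higher in 15 of 17 pairs that serve the same amino acid, with EPRS1 and FARS2 each entering 2 pairs. The median ratio of levels in the empty vector libraries was 5.14, that of LARS1 to LARS2. FARSA had the highest level, at 4781 normalised reads per kilobase, followed by QARS1 at 3357 and KARS1 at 3327. The exceptions were CARS1, at 615 against 1059 for CARS2, and IARS1, at 1339 against 1887 for IARS2, the most abundant mitochondrial enzyme per kilobase. The 2 subunits of the cytosolic phenylalanyl enzyme differed, FARSB standing at 712 normalised reads per kilobase beside 4781 for FARSA. At the other end, VARS1 stood at 2822 and VARS2 at 10.1 normalised reads per kilobase, a ratio of 279. Such ratios depend on the transcript chosen for the length.

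**Figure D4:**
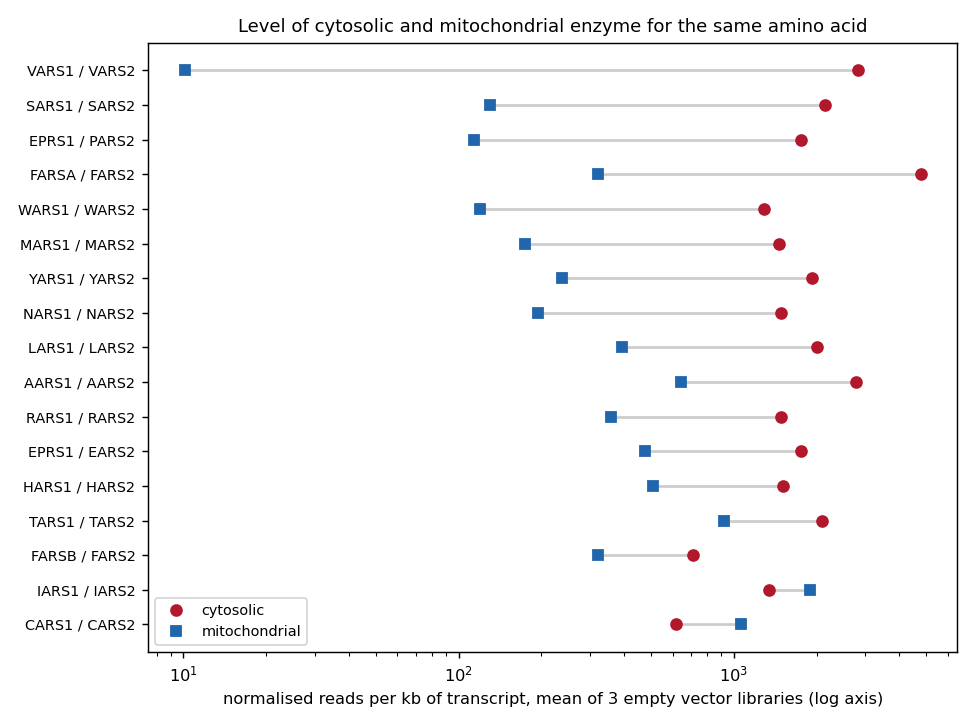
Level of the cytosolic (circles) and mitochondrial (squares) enzyme for the same amino acid, in normalised reads per kilobase of transcript on a log axis, as the mean of the 3 empty vector libraries. The cytosolic gene is higher in 15 of 17 pairs, and the CARS1 and IARS1 pairs at the bottom are the reverse.

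The change was larger for the cytosolic than for the mitochondrial gene in 11 of the 17 pairs. In the alanine pair, AARS1 had a log2 change of 0.13 and AARS2 of -0.08, and in the arginine pair RARS1 had 0.11 and RARS2 -0.03. The methionine pair was the other way round, with MARS1 at 0.04 and MARS2 at 0.25. For tyrosine, YARS1 and YARS2 both had 0.14.

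Genes that work beside the synthetases were listed as well. Among the 3 scaffolds of the multisynthetase complex, 0 passed by limma or edgeR, and 0 of the 2 to which DESeq2 gave an adjusted p. The scaffold EEF1E1 alone had an unadjusted p under 0.05 by limma, higher with SLC2A3, as did 5.63% of all tested genes. EEF1E1 had 275, 274 and 262 normalised reads against 357, 328 and 290. Its groups were apart, and the log2 change was 0.26 (limma adjusted p = 0.346). EEF1E1 shares 36.5% of its transcript with the readthrough gene EEF1E1-BLOC1S5 on the same strand, so its level is uncertain. AIMP1 and AIMP2 had overlapping groups, with log2 changes of 0.06 and -0.03. Among 6 editing and proofreading partners, 0 passed by limma or edgeR (edgeR tested 5). DESeq2 gave an adjusted p to 2 of them and called 1, the peptidyl-tRNA hydrolase PTRH2, against 8.62% of all genes with an adjusted p. By limma, PTRH2 alone had an unadjusted p under 0.05, higher with SLC2A3, as did 5.63% of all tested genes. PTRH2 had 1824, 1897 and 1785 normalised reads against 2163, 2066 and 2078, with a log2 change of 0.20 (limma adjusted p = 0.0873). Of 6 partners of mitochondrial charging and elongation, 15 genes of transfer RNA maturation and export and 4 of the selenocysteine route, limma, edgeR and DESeq2 each called 0, with an adjusted p from DESeq2 for 5, 13 and 3 members of these lists. At an unadjusted p under 0.05, limma counted 0 in all 3 lists and DESeq2 1 of the mitochondrial partners. The share of all genes with such a p by DESeq2 was not counted.

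Of 29 genes of uncharged transfer RNA sensing and the ATF4 response, 3 passed by limma, against 0.692% of all tested genes called higher, and 0 were lower. PHGDH, which opens the serine synthesis pathway, rose from 653 ± 39.5 to 1004 ± 1.56 normalised reads, SLC7A11, the cystine transporter, from 1786 ± 81.0 to 2189 ± 151, and DDIT4, an inhibitor of mTORC1, from 60.4 ± 1.55 to 137 ± 28.5 (SD, n = 3 per group). The SLC7A11 call was lost without SLC2A3 overexpression replicate 3 (log2 change 0.25, limma adjusted p = 0.126). DDIT4 shares 48.5% of its transcript with DDIT4-AS1 on the other strand. edgeR, which tested 28 of the 29, called these 3 and ATF4, against 3.29% of all genes it tested, in either direction. DESeq2, with an adjusted p for 21 of the 29, called PHGDH, SLC7A11, ATF4 and XBP1, a transcription factor of the unfolded protein response. Of all genes to which it gave an adjusted p, DESeq2 called 8.62%, in either direction. It gave none for DDIT4. ATF4 itself had 9748, 10126 and 9854 normalised reads with the empty vector and 11387, 10761 and 10773 with SLC2A3. Its groups were apart, its log2 change was 0.15 (limma adjusted p = 0.0668), and leaving out single libraries gave limma adjusted p from 0.0591 to 0.235. Of the 18 alternatives, 6 passed the threshold for ATF4. Those were edgeR with either scaling, DESeq2, the stricter filter, the length and GC correction, and limma without both replicate 2 libraries (adjusted p = 0.0154). EIF2AK4, the gene of the GCN2 kinase, had 2267, 2039 and 2214 against 2238, 2345 and 2066, with overlapping groups and a log2 change of 0.03. Read counts measure ATF4 messenger RNA and not its translation, on which the response mainly turns.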

How the data were processed

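Libraries were prepared from Trizol-extracted total RNA with a directional NEBNext kit, per the labels. The deposited files hold 1 value per gene ID and library, a normalised signal: judged from the values, the authors divided gene read counts by 1 factor per library. Every value was a whole multiple of 1 step per library, within 0.001 reads. For empty vector replicates 2 and 3 that step was close to 1, and reads were recovered from its further decimals. BWA, TopHat2 and hg38 appear in the submitters' processing notes without roles, and no annotation is named there. Symbols came from a gene name table, with GENCODE 29 as a fallback (60641 of 60660 IDs matched). Coordinates and lengths are those of GENCODE 29 on GRCh38, 1-based.

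The main fit was limma 3.58.1 (R 4.3.3) with trend on log2(value + 1), with group as the only term. Genes needed a value of 1 or more in 3 or more libraries. Benjamini-Hochberg adjustment ran over all of them, at a threshold of 0.05. Alternatives used edgeR 4.0.16 and DESeq2 1.42.0 on recovered reads. Fits were tested on simulated data. Library values were given for the 4 genes with the largest absolute log2 change in each group of enzymes; FARSA, CARS2, EPRS1, EEF1E1 and PTRH2 were added after their values were seen. The members and lists were chosen with earlier results of these data known. 1 marker of the planned list is not reported here.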

Additional observations from a re-analysis of the deposited data

How the results depend on the processing

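Up to 18 alternatives were run for the call counts, the 2 medians and the log2 changes of 14 synthetases, SLC2A3 and 7 other listed genes; sums, levels and the remaining genes were not recomputed. Of those run, the mitochondrial median, which lies near 0, was the 1 value to change direction. Calls among the 36 synthetases, all higher, numbered 1 with edgeR under TMM or relative log expression scaling, 4 with DESeq2, 3 after the correction for length and GC content, 1 with a value of at least 10 in 3 libraries, and 1 without both replicate 2 libraries. What causes these differences was not tested. With any 1 library left out, 0 to 1 synthetases were called, the cytosolic median was 0.069 to 0.096 and the mitochondrial median -0.034 to 0.038. The cytosolic median was 0.075 with the length and GC correction, against 0.084. Over all genes, 194 were higher and 224 lower, 418 in all. edgeR with relative log expression gave 297 higher, DESeq2 345 higher and 459 lower (804 in all), and a pseudocount of 0.1 gave 144 lower. Single libraries left out gave 100 to 222 higher, 88 to 244 lower and 188 to 466 in all. For the 14 synthetases, 237 of 250 alternative values stayed on the same side of the threshold and 13 passed it. For the 7 other genes, EEF1E1, PTRH2, ATF4, PHGDH, SLC7A11, DDIT4 and XBP1, 114 of 124 stayed, 9 passed it and 1 lost it. Same-numbered libraries did not deviate together (correlations of -0.11, 0.01 and 0.00), so the numbers were not taken as pairs. With a replicate block, 0 synthetases were called and the SLC2A3 log2 change was 1.70. Counting error was large for VARS2, at 14.6% to 20%, against a replicate variation of 6.21% with the empty vector and 28.8% with SLC2A3. For PARS2 and SARS2 it was at most 6.51% and 6.88%, below the replicate variation of both groups. For TARS3 it was 5.55% to 6.85%, against a replicate variation of 22.96% with the empty vector and 5.87% with SLC2A3.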

Other observations

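VARS2 was listed at 24.0 to 44.1 normalised reads, while every other synthetase gene had at least 213 in each library. TSFM, the mitochondrial elongation factor that recycles TUFM, was listed at 11.1 ± 3.62 normalised reads with the empty vector and 15.3 ± 4.37 with SLC2A3 (SD, n = 3 per group), while TUFM stood at 11495 to 12564. ASNS, which makes asparagine and is a classical ATF4 target, was listed at 32.2 ± 12.5 and 35.5 ± 4.22, although NARS1, which charges asparagine, stood at 4494 to 4999. In GENCODE 29, 84.3% of the exonic bases of the principal ASNS transcript are shared on the same strand with ENSG00000284707, which had 114 to 170 normalised reads. The level of ASNS is therefore uncertain. These genes were chosen after their values were seen.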
